A study of Homo sapiens with 8 samples.

Results

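Compact multi-exon genes were taken as genes that span little of the genome yet still hold an intron. A gene on chromosomes 1 to 22 was a member if its transcript spanned at most 5000 bases (the median over the 8 files) and that span exceeded the exon length by more than 100 bases. Genes named as ribosomal proteins by their symbols (RPL, RPS, MRPL and MRPS) were left out, while FAU, a ribosomal protein fusion under another name, stayed in. This gave 1837 of the 19414 coding genes counted, or 9.46%. The rule used the positions and exon length of the transcript counted in each file, and no expression level. That transcript could differ between files. It was the same in all 8 for 1219 members, and 63 members spanned more than 5000 bases in some library.

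TT-seq libraries from U2OS, a human osteosarcoma cell line, gave the newly made RNA of these genes. In TT-seq, cells take up the base analogue 4-thiouridine (4-SU), so that RNA made during the label can be told from older RNA. The labels give 4 genotypes with 2 libraries each: WT, Zab, MYC O/E (called MYC here) and Zab + MYC O/E (called MYC_Zab). O/E is read as overexpression. The labels name no construct, promoter, clone, dose or time, and none of the groups has a treatment stated beside its genotype. As background, Zα and Zβ are domains of ADAR, the enzyme that edits adenosine in double-stranded RNA, of which Zα binds left-handed DNA or RNA. The question named in the title is how MYC and FACT, a histone chaperone, bear on Z-DNA and transcription. Separate cultures are not named for the replicates. The p-values therefore rest on the spread between the libraries deposited, and that spread may be purely technical.

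Levels are in CPM, the usual counts per unit of library size over coding exons, scaled between libraries by TMM, and each library held between 1839960 and 4072059 reads. The libraries labelled Zab stood apart in what they captured, with 6.44 and 6.66 coding-exon reads per 100 tags against 13.1 to 13.8 in the others. Some labels were not borne out by the genes they name. In the order WT, Zab, MYC, MYC_Zab, the mean CPM of MYC was 764, 966, 6592 and 762, and that of ADAR was 33906, 543, 455 and 32311. The libraries labelled MYC_Zab therefore lacked the excess of MYC and resembled WT in both genes, so each group below is only "the libraries labelled" by that name, and an ADAR-high group was compared with an ADAR-low one in all comparisons but MYC_Zab over WT and MYC over Zab. Over 653 well-read members, replicates differed by a chi-square of 2.02 to 2.16 per gene, WT from MYC_Zab libraries by 2.72 to 2.91, and other groups by 17.7 to 45.2. Whether the 2 libraries of a group are separate preparations was not tested. Of 10 mesenchymal markers 5 to 8 reached 1 CPM in each group, with a summed level of 2356 to 3974 CPM, although TWIST1 had no reads. Summed epithelial markers were highest in Zab (2344 to 2485 CPM) and lowest in MYC (867 to 908 CPM). KRT8 and KRT18, itself a compact gene, carried nearly all of that sum, and KRT18 had 817 and 818 CPM in WT and 1539 and 1528 in Zab. The other 5 epithelial markers stayed at or under 5.24 CPM in every library, and EPCAM, CDH1 and KRT19 had no reads in Zab, where 3 of 7 markers reached 1 CPM against 5 in WT. Blood markers summed to at most 40.7 CPM.

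As background, a gene's span sets how long RNA polymerase II takes to cross it, so genes with short introns can deliver a finished transcript soon after the start. Many of the cell's most heavily used genes are of this kind, among them actins, tubulins, glycolytic enzymes, ferritins and small subunits of the respiratory chain and proteasome. Many genes that cells switch on within minutes of a stimulus are compact too, such as chemokines and immediate early genes. MYC is a transcription factor that binds E boxes, whose core letters are CACGTG, as a dimer with MAX.

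The sequences upstream of 6 members are shown because these members carry the comparisons below. SDF2L1 and MANF, both of protein folding in the endoplasmic reticulum, were among the largest rises in Zab. CXCL8, a neutrophil-attracting chemokine also called interleukin 8, and CCN2, connective tissue growth factor, were among the largest falls in MYC. HSPE1, the mitochondrial co-chaperonin, and GAPDH, a glycolytic enzyme, were called between MYC_Zab and WT. Each run is the 250 bases before the gene's start in RefSeq on GRCh38.p14, read 5′ to 3′ on the gene's strand, with capitals marking every match of a searched motif on either strand. They lie at chr22:21642052-21642301 (plus strand, SDF2L1), chr3:51385041-51385290 (plus, MANF), chr4:73740319-73740568 (plus, CXCL8), chr6:131951373-131951622 (minus, CCN2), chr2:197500129-197500378 (plus, HSPE1) and chr12:6535014-6535263 (plus, GAPDH).
SDF2L1: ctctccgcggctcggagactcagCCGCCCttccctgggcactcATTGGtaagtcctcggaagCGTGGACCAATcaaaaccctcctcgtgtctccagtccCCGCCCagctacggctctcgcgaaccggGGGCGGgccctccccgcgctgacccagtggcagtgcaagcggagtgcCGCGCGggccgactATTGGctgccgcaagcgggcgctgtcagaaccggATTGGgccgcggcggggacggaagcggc
MANF: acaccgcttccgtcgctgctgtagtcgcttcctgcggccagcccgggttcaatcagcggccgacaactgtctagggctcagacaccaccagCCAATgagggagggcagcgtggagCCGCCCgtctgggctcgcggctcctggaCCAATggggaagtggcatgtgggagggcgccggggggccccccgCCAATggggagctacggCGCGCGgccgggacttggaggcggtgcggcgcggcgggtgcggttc
CXCL8: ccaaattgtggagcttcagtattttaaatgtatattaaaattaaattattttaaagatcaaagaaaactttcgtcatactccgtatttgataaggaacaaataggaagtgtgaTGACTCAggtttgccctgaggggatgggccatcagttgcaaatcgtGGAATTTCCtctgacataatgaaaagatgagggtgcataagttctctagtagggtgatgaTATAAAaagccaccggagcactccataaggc
CCN2: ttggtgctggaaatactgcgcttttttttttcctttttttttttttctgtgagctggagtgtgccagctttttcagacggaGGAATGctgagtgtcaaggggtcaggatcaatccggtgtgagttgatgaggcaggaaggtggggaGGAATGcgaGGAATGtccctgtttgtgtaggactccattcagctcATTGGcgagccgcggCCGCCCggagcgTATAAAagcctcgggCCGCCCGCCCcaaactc
HSPE1: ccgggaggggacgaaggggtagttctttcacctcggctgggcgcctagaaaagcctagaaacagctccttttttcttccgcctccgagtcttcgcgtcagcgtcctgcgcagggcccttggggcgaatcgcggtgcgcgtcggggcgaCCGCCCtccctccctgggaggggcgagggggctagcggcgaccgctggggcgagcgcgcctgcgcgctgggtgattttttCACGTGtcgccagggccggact
GAPDH: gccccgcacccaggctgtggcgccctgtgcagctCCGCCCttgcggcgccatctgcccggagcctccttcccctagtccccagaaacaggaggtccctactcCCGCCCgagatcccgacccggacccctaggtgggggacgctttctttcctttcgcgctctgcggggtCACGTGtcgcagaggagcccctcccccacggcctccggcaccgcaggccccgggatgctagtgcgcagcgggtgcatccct

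The SDF2L1 run held 4 CCAAT boxes and 1 match of ERSE-II, the endoplasmic reticulum stress element read by ATF6. A CCAAT box lies inside that element. ERSE-II matched in 10 of 14786 autosomal promoters, and SDF2L1 was the only one of 1383 compact genes with a promoter in the table to hold it. MANF had 3 CCAAT boxes, which 34.4% of all promoters held at least 1 of. CXCL8 had a TATA box (TATAAA), the AP-1 letters TGACTCA and the NF-κB letters GGAATTTCC, 1 of each, where 9.19%, 3.16% and 0.386% of all promoters held them. CCN2 had a TATA box and 3 copies of GGAATG, the core letters of TEAD factors, which 9.94% of promoters held. HSPE1 and GAPDH each had 1 E box CACGTG, found in 7.83% of all promoters and 8.39% of compact ones. The CCAAT, TEAD, NF-κB and ERSE-II motifs were chosen after the members' values were seen. The GC box GGGCGG (in 57.1% of all promoters) is in capitals as well, and so is the alternating run CGCGCG. A match is a description of letters, not a bound site.

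Across the whole set, compact genes differed from other genes in promoter letters, and much of that lay in members with few or no reads. TATAAA stood in 15.5% of compact promoters and 9.19% of all, but in 7.80% of the 628 that were tested, against 5.21% of all tested genes, and in 21.9% of the 755 that were not. CGCGCG stood in 13.2% of compact promoters and 19.8% of all, and in 21.3% against 25.3% among tested genes. TGACTCA stood in 5.35% and 3.16%. Median GC content was 65.2% both in tested members and in all tested genes. No searched motif is given a test.

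Over the members the median span was 3151 bases, the median exon length 1317 and the median intron length 1503, each taken separately. Compact genes made up 17.4% of the genes counted on chromosome 16, 14.5% on chromosome 19 and 14.1% on chromosome 17, against 1.498% on chromosome 18, where only 4 of 267 genes qualified. The share of genes with enough reads varied with the class: 788 of 1837 (42.9%) had enough reads to be tested, against 61.7% of all genes, 59.9% of multi-exon genes of 5 to 20 kb and 22.4% of single-exon genes. Of the 1049 that were not tested, 605 had no read in any library, 376 had 1 to 20 reads over all 8, and 68 had more, up to 58. Tested members had a median of 753.5 reads over the 8 libraries, from 20 to 237527. Another gene overlapped 99 members on the same strand and 248 on the other, and 158 (8.60%) had a start within 1 kb head to head with a neighbour, against 10.5% of genes of 5 to 20 kb. For 518 of the 788 tested members the same transcript was counted in every library.

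Read depth was concentrated, since the 10 most abundant members took 35.6% of all reads on compact genes. The 10 members named here were picked by mean CPM and are given per kilobase of exon, over all 8 libraries. Other members were not ranked per kilobase. Among these 10, the cytoplasmic actin ACTB stood highest at 5505 CPM per kb, followed by GAPDH at 5046. Next came the iron-storage chains FTL at 1571 and FTH1 at 1490, then the chaperone HSPA8 at 1373 and the tubulin TUBA1B at 1200. ACTG1 (930), the actin-severing cofilin CFL1 (844), the glycolytic enzyme TPI1 (779) and the stress transcription factor ATF4 (513) followed. ATF4 only just counts as multi-exon, since its introns sum to 104 bases.

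Compact genes took a larger share of coding-exon reads in Zab than in the 3 other groups. They held 10.1% and 10.2% of coding-exon reads in the Zab libraries, 8.17% and 8.18% in WT, 7.82% and 7.87% in MYC, beside 8.09% and 8.13% in MYC_Zab. The Zab libraries did not overlap with the other 6, which lay close together. No p is given for a value summed over the members. Set against all tags of a library, not only those on coding exons, compact genes held fewer reads in Zab, 0.652 and 0.678 per 100 tags, against 1.06 to 1.10 in the other 6 libraries, as coding exons did as a whole. This share does not depend on scaling between libraries.

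**Figure D1:**
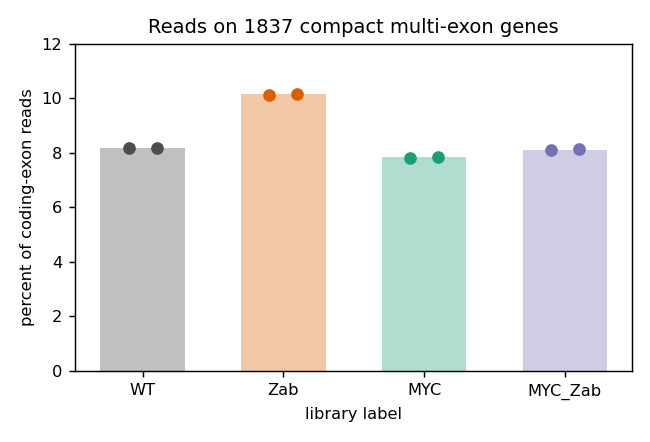
Percent of coding-exon reads that fell on the 1837 compact genes (vertical axis, from 0), for each library label; bars are means of 2 libraries and points are the libraries. Zab reaches 10.1 and 10.2%, and the other 6 libraries lie between 7.82 and 8.18%.

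In Zab over WT, 305 compact genes rose and 66 fell at an adjusted p under 0.05, out of 788 tested. Over all 11985 genes tested, 49.6% were called, 22.5% higher and 27.1% lower. Among the compact genes 47.1% were called, a share near that background, but 38.7% were higher and 8.38% lower. Their median log2 change was 0.36, against -0.08 for all tested genes. The direction of single changes depends on scaling. On the deposited scale, which keeps an unexplained factor per library, 84 compact genes rose and 235 fell with a median of -0.19. Of all tested genes 578 rose and 6889 fell on that scale. With library totals 235 compact genes rose and 91 fell, beside 1888 and 4149 of all tested genes. The gap between the medians of compact genes and of all tested genes hardly moves with scaling by construction, since a factor per library shifts all genes together. Its likeness across scalings is therefore no separate check. That gap was 0.44 with TMM, 0.44 with library totals and 0.43 on the deposited scale. With the WT and MYC_Zab pairs each taken as 1 sample, 230 rose and 33 fell. In bulk libraries a change in the share of cells and a change in RNA per cell cannot be told apart. The low coding-exon share of the Zab libraries moves with this result, and its part in it was not tested.

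Span and change went together in Zab. The median log2 change in Zab over WT was 0.36 for compact genes, 0.13 for multi-exon genes of 5 to 20 kb, -0.18 for 20 to 100 kb and -0.35 for those over 100 kb. Single-exon genes had 0.38, and the 67 compact ribosomal protein genes 0.21. On the deposited scale all these medians were below 0 (-0.19, -0.43, -0.71, -0.87, -0.19 and -0.39), in the same order except that single-exon genes then stood just below compact ones. The single-exon class was uneven with TMM. Its median was 1.36 with up to 1000 bases of exon (66 genes) and 0.32 with 1000 to 2000 bases (50 genes). By mean level it was 0.40 under 10 CPM, 0.02 at 10 to 50 CPM and 0.45 at 50 to 200 CPM. Above 200 CPM, 30 of 30 single-exon genes rose. Taken library by library against the WT mean, and set against all tested genes, compact genes stood at 0.41 in Zab replicate 1 and 0.48 in Zab replicate 2. The same gap was between 0.00 and 0.03 in the MYC and MYC_Zab libraries. Both Zab libraries thus showed it, and none of the other 4 did.

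**Figure D2:**
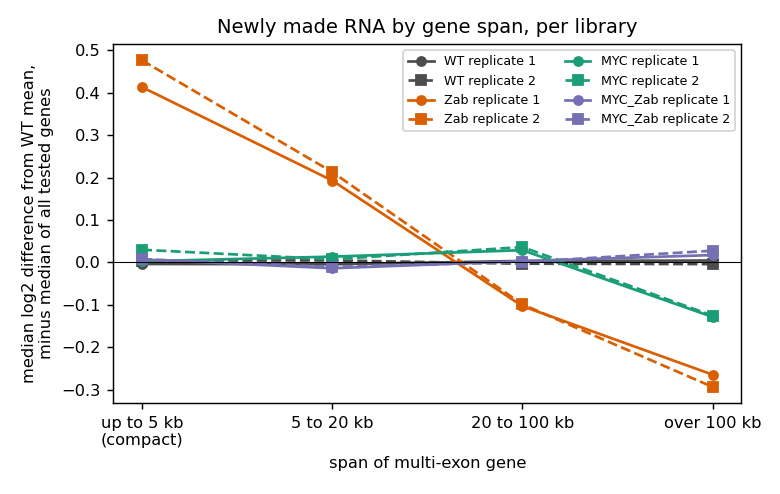
Median log2 difference of each library from the WT mean, minus the median of all tested genes (vertical axis), for multi-exon genes in 4 classes of span (horizontal axis); each line is 1 of the 8 libraries. Both Zab lines fall from 0.41 and 0.48 in compact genes to below -0.2 over 100 kb, while the MYC lines drop only over 100 kb and the MYC_Zab lines stay near 0.

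Within the compact set the change varied more with level than with span. Members spanning up to 1500 bases had a median of 0.47 in Zab over WT (45 genes), those of 1500 to 2500 bases 0.38 (147), those of 2500 to 3500 bases 0.30 (218) and the rest 0.36 (378). By the percent of the span that is intron, medians were 0.36, 0.42, 0.35 and 0.24 in steps of 25% from the lowest to the highest. By mean level, members under 10 CPM had 0.22, those of 10 to 50 CPM 0.32, those of 50 to 200 CPM 0.44 and those above 200 CPM 0.59, and of the last 73 genes 57 rose and 7 fell. Longer genes of the same level stood lower: above 200 CPM, genes of 5 to 20 kb had 0.40, of 20 to 100 kb 0.22 and over 100 kb -0.01. Matching on exon length gave the same order up to 100 kb. With 1000 to 2000 bases of exon, compact genes had 0.38 (353 genes), genes of 5 to 20 kb 0.17 (889) and genes of 20 to 100 kb -0.23 (489). Genes over 100 kb broke the order there, with -0.18 (78). The log2(CPM + 1) scale understates changes of low genes, which bears on the order by level.

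**Figure D3:**
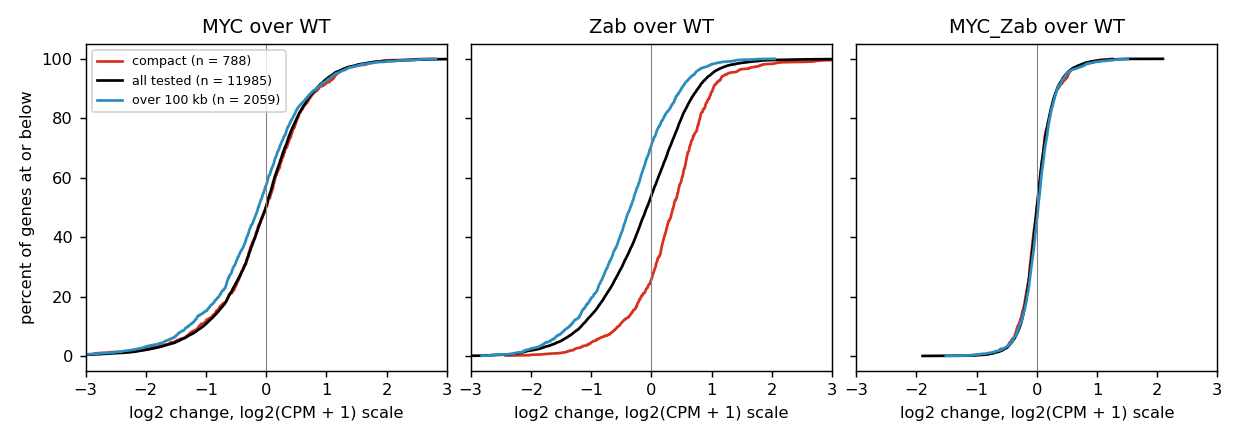
Percent of genes at or below each log2 change (horizontal axis, log2(CPM + 1) scale) for compact genes, all tested genes and multi-exon genes over 100 kb, in 3 comparisons with WT. In Zab over WT the compact median is 0.36 against -0.08 for all tested genes. In MYC over WT the compact curve nearly covers that of all tested genes (0.00 against -0.01) and lies right of genes over 100 kb (-0.13), and the 3 curves lie close together in MYC_Zab over WT.

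SPRR2D had the largest rise of a compact gene in Zab by the naming rule, whose mean of 5 CPM it reached only through Zab. This gene, a precursor of the cornified envelope of skin, had 0.648 and 0 CPM in WT, 137 and 124 in Zab, 1.03 and 0.495 in MYC, beside 1.56 and 0.496 in MYC_Zab. It was all but unread outside Zab, with 2 reads in WT and 469 in Zab, a ratio of 382 with a 95% exact counting interval of 105 to 3168. Since reads mostly came in twos, that interval is too narrow. SPRR2D belongs to a family of close copies, and reads could be split among them.

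SDF2L1, an endoplasmic reticulum chaperone component at chromosome 22, 21996591 to 21998588 of hg19, had 23.3 and 26.5 CPM in WT, 222 and 206 in Zab, 50.1 and 62.8 in MYC, beside 27.5 and 22.8 in MYC_Zab. Zab was thus highest, MYC was intermediate, and WT and MYC_Zab overlapped. Its log2 change in Zab over WT was 3.06 ± 0.16 (SE, 2 libraries a group, adjusted p = 6.9e-15), or 8.61-fold by mean CPM. MANF, a secreted factor of the endoplasmic reticulum stress response at chromosome 3, 51422722 to 51426828, had 65.1 and 61.1 CPM in WT, 286 and 263 in Zab, 50.6 and 54.6 in MYC, beside 65.1 and 65.3 in MYC_Zab. Only the Zab libraries stood clear of WT upwards, by 2.10 ± 0.12 (adjusted p = 2.7e-14).

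DEPP1, a stress gene under FOXO factors, had 5.18 and 3.58 CPM in WT and 36.0 and 38.8 in Zab, with 2.47 to 4.67 CPM elsewhere (2.85 ± 0.37, adjusted p = 3.8e-07). ISG15, the ubiquitin-like protein induced by interferon, had 8.43 and 8.58 CPM in WT and 56.0 and 72.8 in Zab, and between 4.45 and 10.9 in the 4 other libraries (2.77 ± 0.33, adjusted p = 6.2e-08). PI3, the elastase inhibitor elafin, had 3.24 and 4.29 CPM in WT, 28.9 and 31.4 in Zab, and 1.48 to 2.60 in the others (2.72 ± 0.41, adjusted p = 4e-06). In all 3 the Zab libraries lay above every other library, which for WT the naming rule already asked. DEPP1 and PI3 reached that rule's mean of 5 CPM only through Zab. CDK2AP2, a protein named for its relation to a CDK2-associated protein, had 26.9 and 28.6 CPM in WT, 150 and 113 in Zab, 10.1 and 13.1 in MYC, beside 28.8 and 21.1 in MYC_Zab, so that it rose in Zab (2.19 ± 0.21) and fell in MYC (by 1.20 ± 0.21). METRN, a secreted neurotrophic factor, went from 10.4 and 16.1 CPM in WT to 52.5 and 63.4 in Zab (2.07 ± 0.24) and also rose in MYC, to 32.5 and 26.5.

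Fewer compact genes fell in Zab. BTG2, an antiproliferative early-response gene, had 174 and 178 CPM in WT, 60.1 and 73.3 in Zab, 79.5 and 84.3 in MYC, beside 173 and 153 in MYC_Zab. It was low in both Zab and MYC, by 1.39 ± 0.11 (adjusted p = 6.3e-11) and 1.09 ± 0.11 on the log2 scale. TRMT10C, a subunit of the mitochondrial RNase P that trims tRNAs, had 45.4 and 50.4 CPM in WT and 18.9 and 14.7 in Zab (-1.47 ± 0.19, adjusted p = 2.1e-07), but rose in MYC to 80.03 and 62.1, a call lost without WT replicate 1 (0.49) or MYC replicate 1 (0.37). PNRC2, which takes part in mRNA decapping, had 63.8 and 52.9 CPM in WT and 23.6 and 20.4 in Zab (-1.37 ± 0.18), with 48.0 to 73.0 CPM in MYC and MYC_Zab.

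TXNIP, which binds thioredoxin and curbs glucose uptake, had 31.8 and 26.5 CPM in WT and 12.97 and 6.28 in Zab (-1.57 ± 0.27, adjusted p = 2e-05), although its counted transcript differed between libraries and another gene overlaps it on the same strand. The transcription factor SNAI2 had 14.9 and 12.2 CPM in WT, 4.72 and 5.24 in Zab, and 2.58 and 1.48 in MYC (-1.28 ± 0.38 in Zab over WT), a call that was lost without WT replicate 1 (-1.13). A further 3 low genes passed with less ground, KCTD6 (-1.41 ± 0.44), COQ10A (-1.30 ± 0.45) and BBS10 (-1.28 ± 0.44). Without Zab replicate 1 their changes were -0.54, -0.54 and -0.84, no longer called, and KCTD6 and COQ10A were counted over differing transcripts. BBS10 was also lost without WT replicate 2 (-1.04), COQ10A likewise (-1.02), and KCTD6 without WT replicate 1 (-1.15).

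Most of the abundant members rose in Zab as well with TMM scaling. ACTB had 9781 and 9619 CPM in WT, 12902 and 13286 in Zab, 7253 and 7428 in MYC, beside 9499 and 9544 in MYC_Zab, a rise of 0.43 ± 0.018 in Zab and a fall by 0.40 ± 0.018 in MYC. GAPDH rose by 0.54 ± 0.018, HSPA8 by 0.53 ± 0.027, TUBA1B by 0.65 ± 0.034, ACTG1 by 0.66 ± 0.034, FTL by 0.65 ± 0.041, TPI1 by 0.75 ± 0.040 and CFL1 by 0.85 ± 0.042. These directions depend on scaling, since on the deposited scale ACTB (-0.17), GAPDH (-0.064) and HSPA8 (-0.077) were lower in Zab, TUBA1B (0.045), ACTG1 (0.053) and FTL (0.042) were no longer called, and TPI1 (0.14) and CFL1 (0.25) were higher by less. ACTB in MYC turned to 0.097 as well. Against them stood FTH1, the ferritin heavy chain, with 2325 and 2330 CPM in WT, 1647 and 1726 in Zab, 974 and 948 in MYC, beside 2127 and 2175 in MYC_Zab. The heavy and light ferritin chains therefore moved apart in Zab, where FTH1 fell by 0.46 ± 0.034, and in MYC, where FTH1 fell by 1.28 ± 0.034 and FTL rose by 0.32 ± 0.041. ATF4 fell in Zab by 0.57 ± 0.042. ACTB, GAPDH, HSPA8, TUBA1B, ACTG1 and FTH1 have processed copies elsewhere in the genome, so their reads may be split.

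In MYC over WT, as many compact genes rose as fell, 166 each. The 42.1% called was close to the 44.1% of all genes tested, and the median was 0.00 against -0.01. On the deposited scale 381 rose and 73 fell, beside 5879 and 1159 of all tested genes. The rises were 83.9% of the calls in compact genes and 83.5% in all tested genes. The gap between the medians of compact and all tested genes was then 0.00. Compact genes as a class were thus level with other genes in MYC, while genes over 100 kb had a median of -0.13 (0.35 on the deposited scale). Among compact genes those with little intron, up to 25% of the span, had 0.20 (110 genes), and those with over 75% intron had -0.15 (88 genes).

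The largest falls in MYC exceeded the largest rises. CXCL8, at chromosome 4, 74606286 to 74609433, had 61.2 and 59.4 CPM in WT, 121 and 118 in Zab, 1.55 and 2.47 in MYC, beside 50.3 and 58.6 in MYC_Zab. It rose in Zab by 0.98 ± 0.20 (0.38 and not called on the deposited scale) and was close to lost in MYC, where it fell by 4.36 ± 0.20 (adjusted p = 4.2e-16). CCN2, at chromosome 6, 132269317 to 132272512, had 699 and 703 CPM in WT, 721 and 637 in Zab, 95.3 and 92.5 in MYC, beside 753 and 735 in MYC_Zab. With TMM, Zab overlapped with WT here, and only MYC was low, by 2.89 ± 0.062 (adjusted p = 5.9e-24). With library totals (-0.22) and on the deposited scale (-0.66), CCN2 was called lower in Zab too. LGALS1, the sugar-binding protein galectin 1, had 901 and 931 CPM in WT, 1526 and 1552 in Zab, 122 and 127 in MYC, beside 909 and 944 in MYC_Zab. It moved in opposite directions, up in Zab by 0.75 ± 0.050 and down in MYC by 2.87 ± 0.050 on the log2 scale.

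KRT34, a hair keratin, had 23.3 and 19.3 CPM in WT, 18.3 and 14.1 in Zab, 0.258 and 0.989 in MYC, beside 20.2 and 14.6 in MYC_Zab (-3.81 ± 0.35 in MYC over WT, adjusted p = 8.4e-10). POLD4, the smallest subunit of DNA polymerase delta, had 30.8 and 32.9 CPM in WT, 29.5 and 25.7 in Zab, 2.58 and 1.48 in MYC, beside 31.4 and 27.3 in MYC_Zab (-3.46 ± 0.28, adjusted p = 4.7e-11). With TMM, both were low in MYC alone among the 4 groups. On the deposited scale both were called lower in Zab too (-0.92 and -0.77). RGS2, a brake on G protein signalling, had 27.2 and 31.1 CPM in WT, 17.7 and 11.5 in Zab, 3.10 and 3.21 in MYC, beside 37.6 and 33.3 in MYC_Zab, falling by 2.86 ± 0.28 in MYC and by 0.98 ± 0.28 in Zab, where the call was lost without WT replicate 2 (-0.88) or Zab replicate 2 (-0.69). SYNGR3, a synaptic vesicle protein (-2.72 ± 0.39), and IFI27L2, an interferon-inducible gene by its name (-2.33 ± 0.30), completed the 8 largest falls by the same rule.

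Rises in MYC included stress-response regulators. DDIT4, an inhibitor of the growth kinase mTORC1, had 106 and 112 CPM in WT, 207 and 199 in Zab, 437 and 427 in MYC, beside 115 and 90.4 in MYC_Zab. It was higher in MYC than in Zab and higher in Zab than in WT, by 1.98 ± 0.097 (adjusted p = 1.6e-15) and 0.90 ± 0.097 over WT. GDF15, a secreted stress cytokine, followed the same order with 35.3 and 38.6 CPM in WT, 61.9 and 71.7 in Zab, 147 and 129 in MYC, beside 42.8 and 44.4 in MYC_Zab (1.87 ± 0.14 in MYC over WT), although its difference between Zab and WT was not called on the deposited scale (0.24). C8orf33 did so too, with 79.4 and 70.1, 157 and 164, 256 and 286, and 82.3 and 70.5 CPM (1.84 ± 0.11). SIX2, a homeobox factor, had 3.89 and 1.43 CPM in WT and 16.5 and 14.6 in MYC, and the Zab libraries, at 2.36 and 4.19, overlapped with WT (2.26 ± 0.45 in MYC over WT, adjusted p = 0.00018). CTRL, a digestive protease, rose by 1.94 ± 0.44, and ZBTB12, a zinc finger protein, by 1.74 ± 0.37. HOXD9, another homeobox factor (1.79 ± 0.47), and the kinase AURKC (1.74 ± 0.48) rose on few reads. HOXD9 was not called without WT replicate 1 or without MYC replicate 2 (1.40), and AURKC not without WT replicate 1 (1.14).

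**Figure D4:**
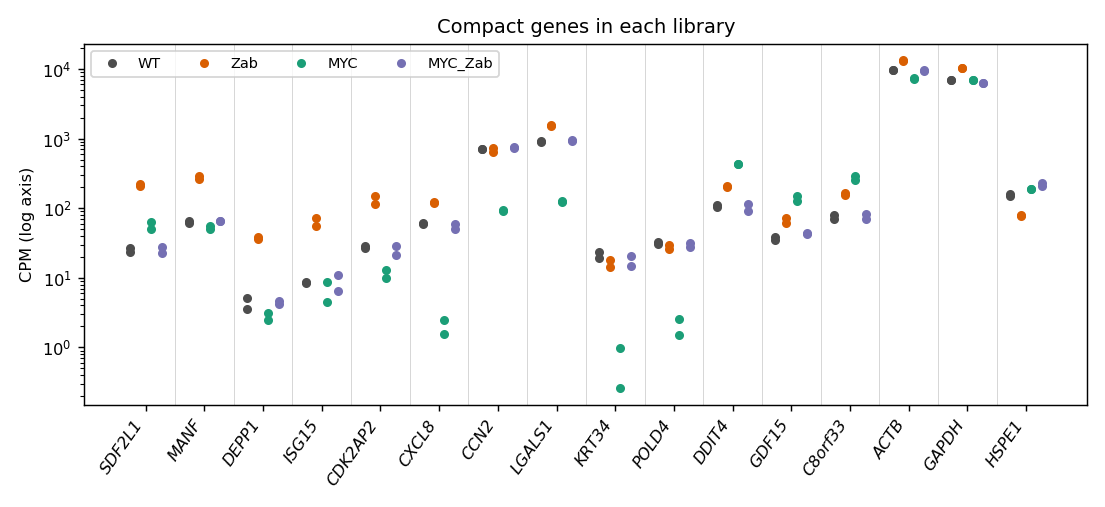
CPM on a log axis for 16 compact genes in each of the 8 libraries, coloured by label. SDF2L1, MANF, DEPP1 and ISG15 stand highest in Zab, CXCL8, CCN2, LGALS1, KRT34 and POLD4 lowest in MYC, DDIT4, GDF15 and C8orf33 highest in MYC, and WT and MYC_Zab lie side by side in most of them.

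MYC and Zab, the 2 ADAR-low groups, were also compared with each other. In MYC over Zab, 87 compact genes were higher and 316 lower, 51.1% of those tested, against a background of 56.5% called, 30.6% higher and 25.9% lower. The median was -0.33 for compact genes and 0.08 for all tested genes. On the deposited scale the counts turned to 477 higher and 75 lower with a median of 0.69. Of all tested genes 9003 were higher and 598 lower on that scale. The gap between the medians was -0.39 there, against -0.40 with TMM. FABP5, a fatty-acid carrier, had 54.2 and 64.9 CPM in Zab and 251 and 248 in MYC, with WT at 124 and 128 between them (2.05 ± 0.11 in MYC over Zab, adjusted p = 2.2e-15). TRMT10C was higher in MYC by 2.02 ± 0.19. IFI30, a lysosomal thiol reductase, ZFP36L2, which promotes mRNA decay, and ARC, a synaptic activity gene, were higher by 1.77 ± 0.22, 1.60 ± 0.14 and 1.52 ± 0.088, and in these 3 no difference between Zab and WT was called with TMM, while on the deposited scale all 3 were called lower in Zab (-0.65, -0.49 and -0.68). SAA1, an acute-phase protein, was lower in MYC than in Zab (-4.18 ± 0.48 on the log2 scale), with 0 and 1.98 CPM in MYC against 23.6 and 38.8 in Zab, over differing transcripts.

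MYC_Zab and WT differed in 5 compact genes, 2 higher and 3 lower, of 788 tested by limma. That was 0.635%, against 0.576% of all genes. At an unadjusted p under 0.05 the count was 61, and edgeR called 10 and DESeq2 11, beside 920, 144 and 118 of all tested genes. Merging the 2 libraries of WT, and those of MYC_Zab, into 1 sample per group left limma with 0 calls, with 12 at an unadjusted p under 0.05. On the deposited scale 114 were higher and 0 lower, beside 1841 and 3 of all tested genes, whose median moved by 0.26.

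HSPE1 was the largest of these 5, with 161 and 148 CPM in WT, 79.0 and 77.5 in Zab, 188 and 190 in MYC, beside 211 and 233 in MYC_Zab. It was thus lowest in Zab and highest in MYC_Zab, with a log2 change over WT of 0.52 ± 0.093 in MYC_Zab (adjusted p = 0.0031) and -0.97 ± 0.093 in Zab. Another gene overlaps it on the same strand, and the MYC_Zab call was lost without WT replicate 2 (0.46) or MYC_Zab replicate 2 (0.45). VGF, a neuropeptide precursor, had 324 and 364 CPM in WT, 654 and 684 in Zab, 239 and 207 in MYC, beside 422 and 445 in MYC_Zab (0.34 ± 0.070, adjusted p = 0.015). It was not called without WT replicate 1 (0.26), MYC_Zab replicate 1 (0.37) or MYC_Zab replicate 2 (0.30). GAPDH had 7007 and 6988 CPM in WT and 6270 and 6365 in MYC_Zab (-0.15 ± 0.018, adjusted p = 2.4e-05), and HSPA8 2786 and 2870 against 2472 and 2467 (-0.20 ± 0.027, adjusted p = 6.6e-05). TUBA1B was lower by 0.16 ± 0.034 (adjusted p = 0.017), a call lost on leaving out any 1 library of WT, MYC or MYC_Zab (-0.13 to -0.19). All 3 small falls changed sign on the deposited scale, to 0.13, 0.081 and 0.12, of which the value of HSPA8 (0.081) was not called.

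MYC_Zab over MYC and MYC_Zab over Zab share libraries with the comparisons already given, and their values are set side by side without a measure of likeness. MYC_Zab over MYC gave 169 higher and 173 lower against a background of 44.6% called, with a median of 0.03 for compact genes and for all genes tested. On the deposited scale 118 compact genes were higher and 261 lower, beside 1880 and 4052 of all tested genes. DDIT4 fell by 2.07 ± 0.097, where MYC over WT had raised it by 1.98, CXCL8 rose by 4.22 ± 0.20 and DDAH2, which breaks down methylated arginine, by 2.26 ± 0.21. HES7, a transcription factor of the segmentation clock, fell by 1.91 ± 0.40 over differing transcripts. MYC_Zab over Zab gave 62 higher and 304 lower against a background of 49.5% called, with medians of -0.35 and 0.06. Deposited values gave 398 higher and 36 lower (median 0.46), beside 8829 and 239 of all tested genes. Library totals gave 87 and 219, beside 4285 and 1742. Among the rises were PNRC2 (1.49 ± 0.18), HSPE1 (1.49 ± 0.093) and the genes of 2 short proteins, POLR2K, a subunit shared by the RNA polymerases (1.46 ± 0.29), and SMIM30 (1.37 ± 0.29).

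The interaction asks whether Zab changed a gene by the same amount with and without the MYC label, as MYC_Zab over MYC minus Zab over WT. It was called in 399 compact genes, 118 higher and 281 lower, against a background of 53.3% called, 29.3% higher and 24.0% lower, and its median was -0.35, with 0.14 over all tested genes. On the deposited scale the split was 192 and 187, beside 5035 and 1854 of all tested genes. With library totals it was 167 and 214, beside 4590 and 2134. The gap between medians was -0.49 with TMM, -0.49 with library totals and -0.48 on the deposited scale. Because the MYC_Zab libraries did not carry the MYC excess, this term cannot be read by its labels. The most negative were SPRR2D (-6.51 ± 0.66), SDF2L1 (-4.19 ± 0.23) and ZBTB12 (-3.86 ± 0.53), and the most positive RGS2 (4.11 ± 0.40) and KRT34 (3.91 ± 0.50).

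Roles were compared between compact genes and the other genes of the same list. The 13 lists held 1007 genes, of which 977 were in the files and 241 were compact. The other genes are those outside the compact set. Single-exon genes may be among them, so a gap may not be one of span alone. In Zab over WT the compact median stood above that of the other genes in 10 of the 13 lists. This held on all 3 scalings, which by construction shift all genes by nearly the same amount. As a background for the lists, 38.7% of all tested compact genes were higher and 8.38% lower, with a median of 0.36. Over all tested genes these were 22.5%, 27.1% and -0.08. Chemokines, cytokines and growth factors showed the widest gap. Of 17 tested compact genes 11 rose and 0 fell, with a median of 0.83. Of 38 other genes 10 rose and 10 fell, with a median of -0.07. MIF, a macrophage cytokine, had 408 and 384 CPM in WT and 594 and 585 in Zab (0.57 ± 0.058), and MDK, the growth factor midkine, rose by 0.55 ± 0.10, but on the deposited scale both stood just below 0 (-0.032 and -0.053). Proteasome and ubiquitin genes had 6 of 13 compact ones up and 0 down (median 0.34, but -0.26 on the deposited scale). With TMM this median was close to the 0.36 of all compact genes. Of the 50 other genes of that list 12 were up and 20 down (-0.15). UBB, a ubiquitin precursor, rose by 0.76 ± 0.059.

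Respiratory chain and ATP synthase subunits gave 6 up and 1 down of 13 compact genes (median 0.22, -0.37 on the deposited scale). With TMM this median was below the 0.36 of all compact genes. The 65 other genes of that list gave 15 up and 21 down (-0.08). CYC1, cytochrome c1 of complex III, rose from 372 and 348 CPM in WT to 661 and 705 in Zab (0.92 ± 0.057), while COX7C of complex IV fell from 159 and 142 to 73.1 and 77.0 (by 0.99 ± 0.10). The compact subunits thus did not all move the same way. Actin and tubulin genes gave 7 up and 0 down of 12 compact (median 0.59, but -0.01 on the deposited scale). The 55 other genes of that list gave 25 up and 14 down (0.28). Glycolysis, redox and metal-binding genes gave 11 up and 2 down of 16 (0.55, -0.05 deposited), against 23 and 11 of 51 (0.21). Cell cycle and chromatin genes gave 13 up and 1 down of 22 (0.45, -0.15 deposited), against 47 and 26 of 112 (0.18), with CDC20, the activator of anaphase, at 0.91 ± 0.058 and the nucleosome-binding HMGN2 falling by 0.34 ± 0.069. Spliceosome genes gave 3 up and 1 down of 6 (0.33, -0.27 deposited), against 27 and 22 of 71 (0.00), with the mRNA export adaptor ALYREF at 1.02 ± 0.082.

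Heat shock and endoplasmic reticulum folding genes rose in both kinds. Of 13 compact genes 8 were up and 1 down (0.57, -0.04 deposited). Of 68 other genes 41 were up and 14 down (0.40, -0.20 deposited). HSPB1, a small heat shock protein, had 300 and 317 CPM in WT and 623 and 709 in Zab (1.106 ± 0.065). S100, keratin and epidermal genes gave 9 up and 1 down of 13 compact (0.80) and 5 up and 1 down of 11 other genes (0.61). Both medians were above 0 on every scaling, and KRT18 stood at 0.91 ± 0.045. KRT18 and KRT8 carried the summed epithelial markers, which moved with this list, while EPCAM and CDH1 had no reads in Zab. Mitochondrial import genes gave 2 up and 2 down of 9 (0.09) and 8 and 6 of 26 (0.07). In the 3 remaining lists compact genes stood below the other genes. These were immediate early and stress genes (13 up and 9 down of 34, median 0.14, against 22 and 9 of 43, median 0.31), translation and nucleolar genes (6 and 3 of 15, 0.18, against 45 and 33 of 97, 0.24) and RNA polymerase subunits (1 and 1 of 5, -0.02, against 6 and 5 of 23, 0.06). EIF1, which selects the start codon, fell in Zab by 0.50 ± 0.053, and EIF5A, a factor of translation elongation, rose by 0.52 ± 0.043 (-0.091 on the deposited scale).

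**Figure D5:**
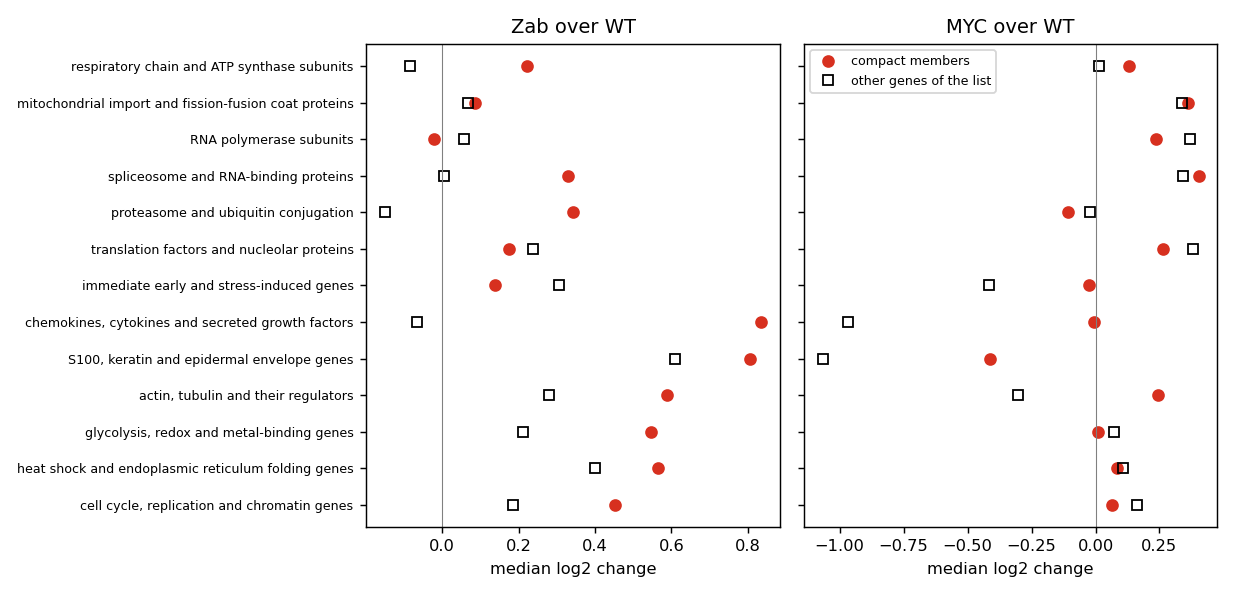
Median log2 change of the tested compact genes (filled circles) and of the other tested genes (open squares) of each of 13 role lists, in Zab over WT and MYC over WT, with TMM scaling. In Zab over WT the circle lies to the right of the square in 10 lists, by the most in chemokines (0.83 against -0.07), and in MYC over WT the squares of chemokines and epidermal genes lie near -1.

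In MYC over WT the same lists ordered differently. The background there was 21.1% of compact genes higher and 21.1% lower, beside 22.2% and 21.9% of all tested genes. Compact chemokines and growth factors had 5 up and 4 down of 17 (median -0.01, but 0.47 on the deposited scale). The 38 other genes of that list had 5 up and 22 down (-0.97, -0.50 deposited). Compact epidermal genes had 1 up and 7 down of 13 (-0.41, but 0.00 deposited), against 0 and 8 of 11 (-1.07, -0.57 deposited). Actin and tubulin genes had 6 up and 4 down of 12 compact (0.24). The 55 other genes of that list had 9 up and 28 down (-0.30, but 0.19 on the deposited scale). Immediate early genes had 11 up and 13 down of 34 (-0.02, but 0.47 deposited), against 10 and 20 of 43 (-0.42, but 0.07 deposited), with CCN1, a relative of CCN2, falling by 1.59 ± 0.063. Translation and nucleolar genes had 8 up and 3 down of 15 (0.26), against 58 and 8 of 97 (0.38), mitochondrial import 5 and 0 of 9 (0.36), against 14 and 2 of 26 (0.34), and RNA polymerase subunits 0 and 0 of 5 (0.24), against 15 and 1 of 23 (0.37). TOMM22, a receptor of the mitochondrial import pore, had 237 and 244 CPM in WT, 243 and 259 in Zab, and 445 and 448 in MYC (0.89 ± 0.071). ALYREF rose by 1.14 ± 0.082 and LY6E, a membrane-anchored protein, by 1.16 ± 0.072.

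The limit of 5000 bases fell among genes of no common pattern. Just inside it, PLA2G2A and CCL16 had no reads in any library, and SHISA3 had between 0.524 and 4.72 CPM. Just outside, EMP3 (5002 bases) had 116 and 117 CPM in WT and 162 and 153 in Zab, and the low genes ASDURF (5003) and BHLHE41 (5008) had 5.83 to 10 CPM in WT and 5.89 to 7.86 in Zab.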

How the data were processed

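TT-seq values came from 8 U2OS libraries in 4 groups of 2, grouped by genotype label. Per the file headers, the authors ran HOMER (analyzeRepeats, opposite strand) over RefSeq coding exons of hg19 and kept 1 transcript per symbol. Trim Galore 0.6.6, SAMtools 1.11, bedtools 2.29.2 and STAR stand in the submitters' processing notes, with the builds hg19 and dm6. The deposited values are a signal, each a whole multiple of 1 step per library; 99.95% to 100% of values per library came out as whole reads within 0.02 reads, and what the factor rests on is not given in these sources. Of values of 1 to 20 reads, 77.2% to 82.7% were even.

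CPM came from the deposited signal with TMM scaling over all genes (edgeR 4.0.16). Genes passing filterByExpr on recovered reads (minimum 10), 11985 in all, were fitted with limma 3.58.1 (R 4.3.3, trend) on log2(CPM + 1) in a model with a term per group, all 8 libraries and 4 residual degrees of freedom, without a block. Calls use a Benjamini-Hochberg adjusted p under 0.05 over all tested genes. Folds are ratios of mean CPM. Alternatives were edgeR's quasi-likelihood test, which called 5769 genes in MYC over WT and 5687 in Zab over WT, and DESeq2 1.42.0, both on recovered reads, other scalings, pseudocounts, filters and limits of span, and leaving out each library. The method was tested on simulated reads. Replicate numbers did not pair the libraries.

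Named genes are, per comparison, the 8 largest called rises and 8 largest falls whose libraries do not overlap between groups and average 5 CPM or more (5 and 5 for the interaction, overlap not asked), the 10 most abundant, 3 per role list, and 3 on each side of the span limit; not all are printed. Members and lists were chosen with earlier results of these data known. Promoter sequences are from RefSeq (GRCh38.p14) by gene symbol, for 1383 of 1837 members; GRCh38 and hg19 coordinates are not converted into each other.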

Additional observations from a re-analysis of the deposited data

Results flagged for a closer look

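In the 10 compact genes given here the interaction passed the threshold by limma, so the change from WT to Zab differed from the change from MYC to MYC_Zab. Each value is the log2 change in MYC_Zab over MYC minus that in Zab over WT. It was below 0 in SPRR2D (-6.51), SDF2L1 (-4.19), ZBTB12 (-3.86), METRN (-3.06) and AURKC (-2.98). It was above 0 in RGS2 (4.11), KRT34 (3.91), SYNGR3 (3.63), POLD4 (3.55) and SNAI2 (3.46). SPRR2D was high in Zab only, and AURKC and ZBTB12 were high in both Zab and MYC. With TMM, KRT34 and POLD4 were low in MYC only. The 10 genes are the 5 highest and 5 lowest by the naming rule among 399 compact genes with such a call. The MYC_Zab libraries were at the level of WT in both MYC and ADAR. The 2 comparisons in the term share no library, but ADAR was lower in Zab than in WT and higher in MYC_Zab than in MYC. Since Zab over WT is a part of the term, the term is not separate evidence from it.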

How the results depend on the processing

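Compact genes of the naming rule were taken in the comparisons that name them and in Zab over WT and MYC over WT. Of their 4191 values under 18 settings, 3988 kept their side of the threshold and, where called, their direction. Another 136 lost the call and 39 gained one without changing sign, and 28 reversed. A reversal here is a change of sign with a call in either setting. Several of the new values were near 0 and not called, such as COX7C in MYC over WT (0.0080) and FAU in Zab over WT (-0.033). The reversals were on the deposited scale, except H2AZ1 in Zab over WT, which reversed with library totals too (-0.00028). In Zab over WT they were ACTB (-0.17), COX6A1 (-0.37), DNAJB1 (-0.040), EIF5A (-0.091), FAU (-0.033), GAPDH (-0.064), H2AZ1 (-0.43), HSPA8 (-0.077), MDK (-0.053), MIF (-0.032), POLR2L (-0.029), S100A16 (-0.070), SF3B4 (-0.10), SRSF2 (-0.44), TOMM22 (-0.54) and ZFP36L2 (-0.49). In MYC over WT they were ACTB (0.097), COX7C (0.0080), EIF1 (0.014), GAPDH (0.49), HMGN2 (0.036), KRT18 (0.086), MDK (0.19) and UBB (0.43), and in MYC_Zab over WT GAPDH (0.13), HSPA8 (0.081) and TUBA1B (0.12). On that scale the medians of compact genes also changed sign, to -0.19 in Zab over WT, 0.69 in MYC over Zab, 0.46 in MYC_Zab over Zab and -0.18 in MYC_Zab over MYC (0.03 with TMM), and the interaction median went from -0.35 to -0.00075, since the scale moves all genes together. Limits of span of 3000 and 8000 bases gave, by construction with fewer or more genes, 132 and 730 calls in Zab over WT, 140 and 809 in MYC over Zab, 113 and 665 in MYC over WT, 130 and 700 in MYC_Zab over Zab, 145 and 778 in the interaction, 110 and 694 in MYC_Zab over MYC, and 0 and 9 in MYC_Zab over WT. The 5 calls in MYC_Zab over WT became 114 on the deposited scale, 2 without a filter, 10 by edgeR, 11 by DESeq2 and 0 with both pairs merged; the cause was not tested. Leaving out 1 library gave 303 to 376 calls in Zab over WT, 318 to 412 in MYC over Zab, 254 to 373 in MYC over WT, 280 to 378 in MYC_Zab over Zab, 341 to 428 in the interaction, 252 to 373 in MYC_Zab over MYC, and 2 to 12 in MYC_Zab over WT, where leaving out either Zab library gave the 12. The lone library of a group is then assumed to vary like the others. Depth limits members under 10 CPM, 20 of 180 of which rose in Zab over WT.

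Replicate numbers did not pair the libraries, since deviations of same-numbered libraries correlated between -0.027 and 0.0077. With a replicate block the calls were 372 in Zab over WT, 402 in MYC over Zab, 334 in MYC over WT, 368 in MYC_Zab over Zab, 401 in the interaction, 341 in MYC_Zab over MYC and 6 in MYC_Zab over WT.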
